A study of Acomys cahirinus and Mus musculus with 10 samples.

Results

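The genes described here are 9 genes of the provisional and matricellular matrix: *Fn1*, *Tnc*, *Tnn*, *Postn*, *Cthrc1*, *Spp1*, *Sparc*, *Thbs1* and *Thbs2*. They were chosen by name, with earlier results of these data known. All 9 were found in both species among 11590 genes that could be named and paired between the species by one rule. The ears of sexually mature females were punched with a 4-mm hole, and a ring of tissue at its margin was taken at the later days. *A. cahirinus*, the spiny mouse, closes such holes and restores the tissue, and *M. musculus*, here the outbred CD1 strain, heals them with a scar. Tissue came from 3 animals per species and day, as uninjured ear (D0), the baseline of every change given here, and 5, 10, 15 and 20 days after injury (D5 to D20). The labels name no genetic change and no agent in either species.

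After skin is cut, a clot of fibrin and fibronectin first fills the gap and serves as a scaffold for cells that migrate in, and a fibronectin and tenascin rich matrix replaces the clot before collagen fibres are laid down. Matricellular proteins such as tenascins, thrombospondins, periostin, osteopontin and SPARC are secreted into this matrix but add little to its strength. They act on cells through integrins and other receptors, and on growth factors and collagen assembly. Most are scarce in resting adult skin and are made again after injury.

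Each value is a mean normalized count per library of a group, recovered from the deposited comparison tables, and each change is the log2 ratio of a later day to D0 in the same species. A change was called when the posterior probability of differential expression in the deposited table was at least 0.95. The tables hold no values per animal, so no test over animals was run, and the error given with a change is counting error only (1 SE). Counts were normalized separately in the 2 species, and levels are therefore compared between days and not between species. The 4 comparisons of a species share the same D0 samples. Means summed per library to between 14201880 and 16318349 (*A. cahirinus*) and between 7440295 and 7993235 (*M. musculus*). Low means of the *A. cahirinus* D15 group fell on 2 steps instead of the 3 of the other 9 groups, as for 2 libraries, and its counting error was computed for 2.

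In the *M. musculus* genome (GRCm38, GENCODE annotation) the genes lie on 8 chromosomes. *Fn1* spans chr1:71585520-71653200 and *Tnn* chr1:160085029-160153580, both on the minus strand. *Tnc* lies at chr4:63959785-64047015 (minus), *Postn* at chr3:54361109-54391037 (plus), *Cthrc1* at chr15:39076932-39087121 (plus) and *Spp1* at chr5:104435118-104441050 (plus). *Sparc* lies at chr11:55394500-55423183 (minus), *Thbs1* at chr2:118111876-118127133 (plus) and *Thbs2* at chr17:14665500-14694235 (minus). The values are those of whole genes in *M. musculus* and of assembly components, groups of contigs that share sequence, in *A. cahirinus*. The chosen components aligned to the *M. musculus* transcript over 761 bases (*Spp1*) to 6063 bases (*Fn1*), with identities from 82.13% (*Spp1*) to 94.07% (*Sparc*).

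Many matrix proteins are bound by integrins through an arginine-glycine-aspartate (RGD) sequence. In the longest annotated coding sequence of each *M. musculus* gene, RGD codons were found in 5 of the 9 genes, against 7.2% of 21817 coding genes and 8.3% of the 16438 whose coding length lies between those of *Cthrc1* and *Fn1*. *Fn1* held 2, and *Tnn*, *Spp1*, *Thbs1* and *Thbs2* held 1 each. For all 6, at least 1 *A. cahirinus* contig of the same gene held RGD codons at the matching place. The search looked only at places with RGD codons, so contigs that lack them there were not counted. The stretches are shown because they identify the gene in each species at a part of the protein with a known role. They need not lie in the component whose values are given. Capitals mark the RGD codons.
Fn1, M. musculus, codon 1614: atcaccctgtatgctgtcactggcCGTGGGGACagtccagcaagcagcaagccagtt
Fn1, A. cahirinus: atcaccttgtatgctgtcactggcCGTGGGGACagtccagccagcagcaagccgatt
Spp1, M. musculus, codon 145: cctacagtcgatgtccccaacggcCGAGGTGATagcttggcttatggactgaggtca
Spp1, A. cahirinus: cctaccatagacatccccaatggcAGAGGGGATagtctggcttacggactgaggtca
Tnn, M. musculus, codon 427: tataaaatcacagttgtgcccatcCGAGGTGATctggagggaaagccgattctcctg
Tnn, A. cahirinus: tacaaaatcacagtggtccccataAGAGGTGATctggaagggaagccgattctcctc
Thbs1, M. musculus, codon 927: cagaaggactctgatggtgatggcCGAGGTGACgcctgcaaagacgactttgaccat
Thbs1, A. cahirinus: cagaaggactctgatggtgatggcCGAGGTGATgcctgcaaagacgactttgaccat
Thbs2, M. musculus, codon 928: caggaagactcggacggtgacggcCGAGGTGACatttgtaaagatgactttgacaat
Thbs2, A. cahirinus: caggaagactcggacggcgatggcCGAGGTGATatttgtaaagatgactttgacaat

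Over these 57 bases the species differed at 1 base in *Thbs1*, 3 in *Thbs2*, 4 in *Fn1*, 8 in *Tnn* and 11 in *Spp1*, the gene with the lowest identity over its whole alignment. The *Thbs2* stretch lay in the second component of the gene and the others in the chosen one. No RGD codons were found in *Tnc*, *Postn*, *Cthrc1* or *Sparc* of *M. musculus*. For these, 60 coding bases from the middle of the coding sequence show how far the chosen *A. cahirinus* contig differed there, with its differing bases in capitals.
Tnc, M. musculus, coding bases 3166 to 3225: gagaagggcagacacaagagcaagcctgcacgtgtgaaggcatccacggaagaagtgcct
Tnc, A. cahirinus: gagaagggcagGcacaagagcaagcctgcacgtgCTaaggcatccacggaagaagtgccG
Postn, M. musculus, coding bases 1258 to 1317: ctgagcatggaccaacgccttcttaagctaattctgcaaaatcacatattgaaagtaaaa
Postn, A. cahirinus: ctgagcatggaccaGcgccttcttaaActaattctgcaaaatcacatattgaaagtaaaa
Cthrc1, M. musculus, coding bases 367 to 426: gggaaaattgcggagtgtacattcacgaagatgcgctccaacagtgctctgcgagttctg
Cthrc1, A. cahirinus: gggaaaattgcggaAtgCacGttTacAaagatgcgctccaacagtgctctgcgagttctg
Sparc, M. musculus, coding bases 499 to 558: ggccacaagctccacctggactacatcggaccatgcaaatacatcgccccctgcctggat
Sparc, A. cahirinus: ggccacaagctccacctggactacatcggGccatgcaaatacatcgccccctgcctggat

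To ask how many of these genes changed after injury in each species, calls were counted at each day. In *M. musculus* 8 of the 9 genes were called higher at D5 and again at D10, then 7 at each of the later days, and none was called lower. Of the *A. cahirinus* genes 5 were called higher and 1 lower at D5, followed by 6 and 1, 8 and 1, and 7 and 1 at the next 3 days. The gene called lower was *Postn* at D5 and *Thbs1* at the later days. Of the 11590 paired genes, 31.2%, 21.4%, 18.5% and 13.0% were called higher in *A. cahirinus* from D5 to D20, and 11.3%, 11.7%, 14.5% and 15.2% were called lower. In *M. musculus* 23.7%, 22.0%, 18.8% and 17.5% were called higher and 17.4%, 18.1%, 16.4% and 15.9% lower. The share of the 9 genes called higher was above that of all paired genes in each of the 8 comparisons. Their median log2 change in *A. cahirinus* was 1.66, 3.24, 3.08 and 2.81 from D5 to D20, where that of all paired genes lay between -0.03 and 0.21. In *M. musculus* it was 1.55, 2.47, 2.28 and 1.87, against 0.03 to 0.05. The 9 genes were chosen with earlier results of these data known. Their higher share and median therefore describe the chosen genes and are no test of the group.

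**Figure D1:**
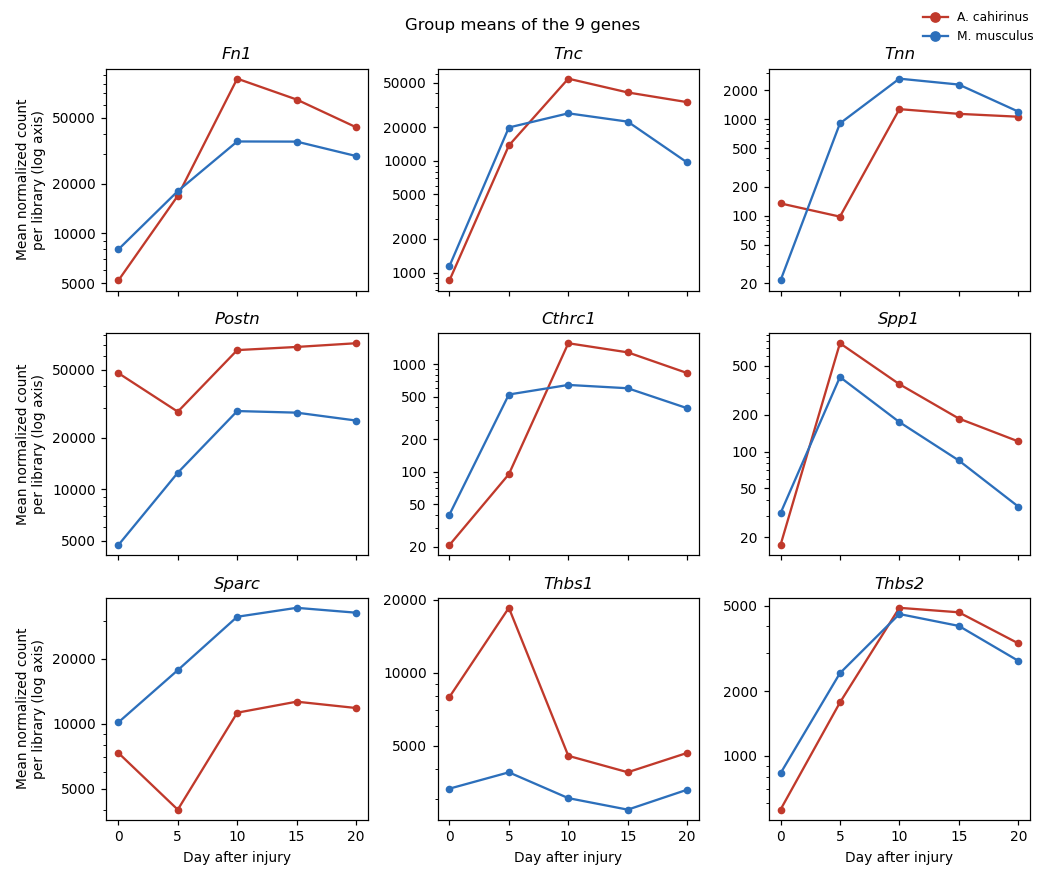
Mean normalized count per library (log axis) of each of the 9 genes by day after injury in *A. cahirinus* (red) and *M. musculus* (blue); each point is 1 group mean with no spread over animals. *Fn1*, *Tnc*, *Tnn*, *Cthrc1* and *Thbs2* had their highest mean at D10 in both species, *Spp1* and *Thbs1* at D5 and *Sparc* at D15. *Thbs1* of *A. cahirinus* stood at 18550 at D5 and then below its D0 mean.

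*Fn1* encodes fibronectin, the first cell-adhesive protein of the wound matrix after fibrin, and *Tnc* encodes tenascin-C, a modulator of adhesion made in wounds and embryos. From D0 to D20 the *Fn1* means of *A. cahirinus* were 5193, 16858, 86023, 64349 and 43765. Those of *M. musculus* were 7998, 17999, 35911, 35838 and 29323. All 8 changes were called higher, and the D10 change was 4.05 ± 0.01 on the log2 scale (16.6-fold) in *A. cahirinus* and 2.17 ± 0.01 (4.49-fold) in *M. musculus*. At D20 the *A. cahirinus* mean was 50.9% of its highest mean and the *M. musculus* mean 81.7%.

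*Tnc* was scarcer at D0 and rose further. Its *A. cahirinus* means were 851, 13705, 54254, 40848 and 33460 from D0 to D20. The *M. musculus* means over the same days were 1143, 19849, 26576, 22392 and 9657. Each change was called higher. At D5 the changes were 4.01 ± 0.03 in *A. cahirinus* and 4.12 ± 0.03 in *M. musculus*, and at D20 they were 5.30 ± 0.03 and 3.08 ± 0.03. By D20 *Tnc* stood at 61.7% of its highest mean in *A. cahirinus* and at 36.3% in *M. musculus*. The difference between the species was not tested for any gene, since it would need values per animal.

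*Tnn* encodes tenascin-N, also called tenascin-W, a tenascin of developing bone and of some activated stroma. Its *M. musculus* mean was 21.3 at D0, about 64 reads over the group, and 904, 2628, 2283 and 1198 from D5 to D20. These were the largest fold changes of the 9 genes in that species, 5.41 ± 0.18 at D5 and 6.95 ± 0.18 at D10, all called. In *A. cahirinus* the mean was 134 at D0 and 97.7 at D5, a change of -0.46 ± 0.11 with a posterior probability of 0.902. It then was 1270, 1135 and 1060, called higher with changes of 3.24, 3.08 and 2.98. At all 4 days the *Tnn* change was the lower one in *A. cahirinus*, with a difference of -5.87 at D5 and of -2.83 at D20 on the log2 scale.

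*Postn* encodes periostin, which helps to cross-link collagen and is made by fibroblasts of ligament and wound. From D0 to D20 its *A. cahirinus* means were 47846, 28433, 65255, 68083 and 71579. It was called lower at D5 (1.68-fold, a call lost at a probability of 0.99), not called at D10 (change 0.45, posterior probability 0.774) and called higher at D15 (0.51) and D20 (0.58). The *M. musculus* means were 4708 at D0 and 12486, 28687, 28075 and 25241 later, called higher throughout, with 6.09-fold at D10. At D0 *Postn* had the highest mean per kb among the chosen components of *A. cahirinus*.

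*Sparc* encodes a collagen-binding protein of matrix-producing cells. Its *M. musculus* mean was 10143 at D0 and 17708, 31294, 34423 and 32676 from D5 to D20, called higher at each day and 3.39-fold at D15. The *A. cahirinus* means were 7326, 3999, 11248, 12651 and 11823 from D0 to D20. The change was called only at D15 (0.79, posterior probability 0.998). The D5 change of -0.87 and the D10 change of 0.62 had posterior probabilities of 0.001 and 0, and the D20 change of 0.69 had 0.065. The D5 means of *Postn*, *Sparc* and *Tnn* thus lay below D0 in *A. cahirinus* and above it in *M. musculus*, although only the *Postn* decrease was called.

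**Figure D2:**
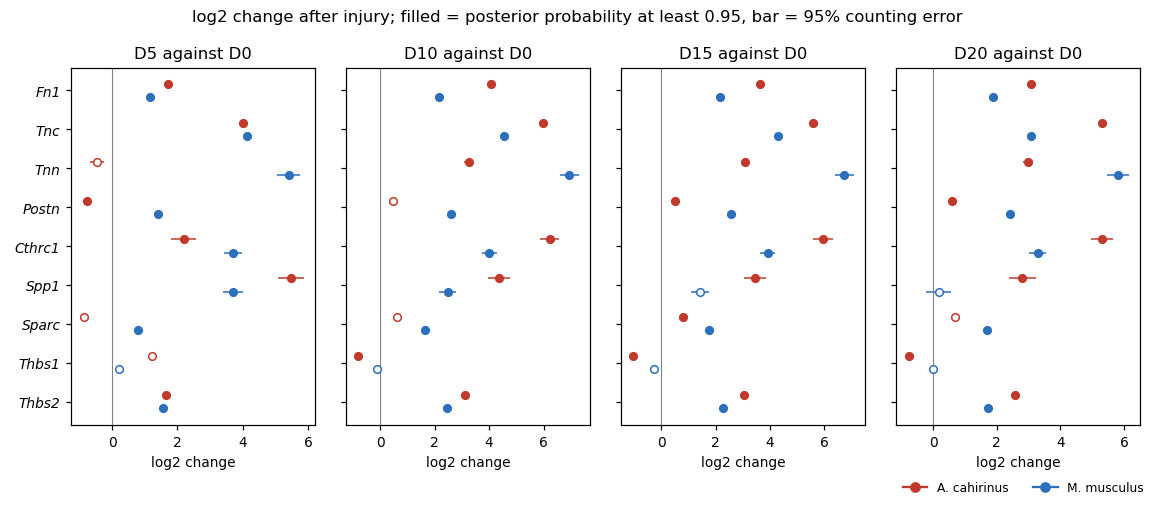
log2 change over D0 (x axis) of the 9 genes at each day in *A. cahirinus* (red) and *M. musculus* (blue); filled points were called at a posterior probability of at least 0.95 and bars are 95% counting error. At D10 *Fn1*, *Tnc*, *Cthrc1*, *Spp1* and *Thbs2* lie further right in *A. cahirinus*, and *Tnn*, *Postn*, *Sparc* and *Thbs1* further right in *M. musculus*.

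*Cthrc1* encodes a secreted protein made by fibroblasts and smooth muscle of injured tissue. Its *A. cahirinus* mean was 20.8 at D0, about 62 reads over the group, and then 94.9, 1568, 1290 and 828. The *M. musculus* mean went from 39.9 at D0 to 523, 642, 598 and 390. All changes were called higher. The *M. musculus* change was 3.71 ± 0.14 at D5 and 4.01 ± 0.14 at D10, whereas the *A. cahirinus* change was 2.19 ± 0.20 at D5 and 6.23 ± 0.18 at D10.

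*Spp1* encodes osteopontin, a phosphoprotein and cytokine of macrophages and bone. Like *Thbs1*, it had its highest mean at D5 in both species. Its *A. cahirinus* means were 17.2, 767, 355, 186 and 121 from D0 to D20, called higher at each day. The *M. musculus* mean was 31.3, 406, 174, 84.5 and 35.5, called at D5 and D10 and not at D15 (1.43, posterior probability 0.909) or D20 (0.18, 0.062). At D5 the *A. cahirinus* change was 5.48 ± 0.20 and the *M. musculus* change 3.70 ± 0.15. At D20 the means were 15.8% and 8.74% of their highest. The summed level of the macrophage and leukocyte markers was also highest at D5, with 2704 against 700 at D0 in *A. cahirinus* (6 of 6 markers measured, 5 called higher) and 3246 against 1166 in *M. musculus* (5 of 6 measured, 5 called). None of the defining markers measured was at 0. At D5, 31.2% of all paired genes were called higher in *A. cahirinus* and 23.7% in *M. musculus*. The highest sum at D5 was not particular to these markers. Keratinocyte markers (43975 and 160915 in the 2 species) and platelet markers (940 and 214) also had theirs at D5. The part of macrophages and leukocytes in the *Spp1* values was not tested. In ear tissue a change in the number of cells and one in RNA per cell cannot be told apart.

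*Thbs1* and *Thbs2* encode thrombospondins, which inhibit vessel growth, and the first also releases active TGF-beta. *Thbs1* was the only one of the 9 genes called at no day in *M. musculus*, with means of 3318, 3876, 3032, 2717 and 3285 from D0 to D20 and changes between -0.29 and 0.22. In *A. cahirinus* the mean was 7936 at D0 and 18550 at D5, a change of 1.22 with a posterior probability of 0.860, and then 4535, 3879 and 4663, called lower with 1.75, 2.05 and 1.70-fold. *Thbs2* behaved otherwise. Its *A. cahirinus* mean was 561, 1769, 4879, 4650 and 3334 from D0 to D20 and its *M. musculus* mean 828, 2422, 4564, 4019 and 2765, all called higher, with 8.69-fold and 5.51-fold at D10.

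Platelets carry the protein of *Thbs1*, and the platelet markers are given beside it. The platelet markers measured summed to 200.0 at D0 and 940.0 at D5 in *A. cahirinus*, of which *Pf4*, a platelet chemokine, accounted for 912 (called higher). Their sum was then 394, 259 and 183 at D10, D15 and D20, days at which *Thbs1* was called lower. In *A. cahirinus* 1 of 2 platelet markers was called higher at D5, D10 and D15 and none at D20. At D5, D10 and D15, 31.2%, 21.4% and 18.5% of all paired genes were called higher. In *M. musculus* *Pf4* was 55.8 at D0, 209 at D5 and 184 at D20, called higher at every day, and *Ppbp* was 2.31 at D0 and 5.25 at D5, not called. Only 2 of the 3 platelet markers were measured in each species, and their part in the *Thbs1* values was not tested.

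Most of the 9 genes are split over several components of the *A. cahirinus* assembly, which gives a second reading of the same libraries. A second component with a D0 mean of at least 10 existed for 6 of the 9 genes. For *Thbs1* it was called higher at D5 (1.31, where the first component missed the threshold) and lower at D10, D15 and D20 (-0.69, -0.82 and -0.61). For *Fn1* (1.46, 3.83, 3.37 and 2.80 from D5 to D20) and *Thbs2* (1.42, 2.87, 2.82 and 2.29) it was called higher at each day. For *Tnn* it was -0.85 at D5, not called, and 2.69, 2.46 and 2.40 later, called higher. For *Postn* it was -0.73 at D5 and 0.28 at D10, neither called, and 0.72 and 0.83 at D15 and D20, both called, while another component of *Postn* was called lower at D5 (-0.80) and higher at D10 (0.32), D15 (0.86) and D20 (0.94). The second *Sparc* component, with -0.90, 0.59, 0.90 and 0.71, was like the first called only at D15.

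**Figure D3:**
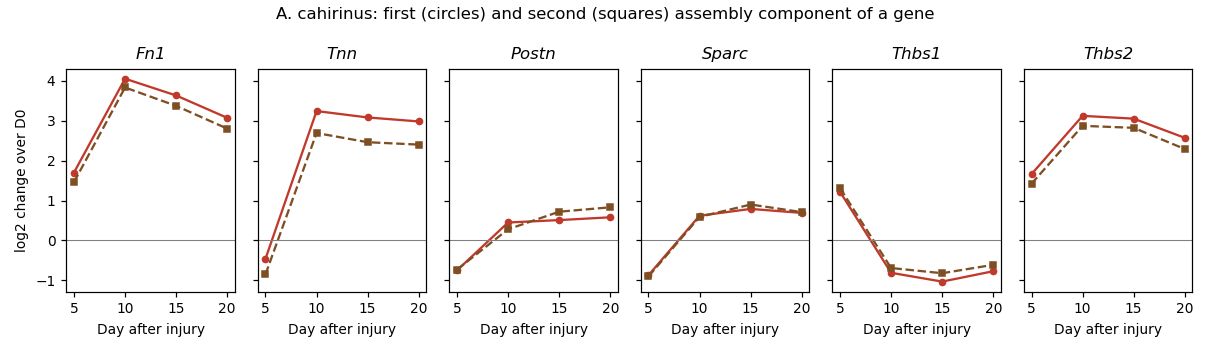
log2 change over D0 by day in *A. cahirinus* for the first (circles) and second (squares) assembly component of the 6 genes whose second component had a D0 mean of at least 10. The lines of a gene run close together, and they lie apart most for *Tnn*, 3.08 against 2.46 at D15.

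Another set of components aligned to *Fn1*, *Tnc*, *Postn* and *Sparc* with an identity of at least 99%. They were left out by the rule on identity. They were few and low for *Fn1* (6 components, summed D0 mean 19.2), *Tnc* (6, 20.8) and *Postn* (1, 18.2), and 1 had a mean of 172 for *Sparc*. None of their changes was called. With no limit on identity the *Sparc* component alone would be replaced, by one of 99.32% identity whose changes were -0.62, 0.12, -0.38 and -0.64 from D5 to D20. The *Sparc* call at D15 would then be lost and its sign turned.

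Per length, *Sparc* was the most abundant of the 9 transcripts in *M. musculus* at D0 with a mean of 4412 per kb, followed by *Postn* (1465), *Fn1* (949), *Thbs1* (572), *Tnc* (161), *Thbs2* (140), *Cthrc1* (34.3), *Spp1* (20.6) and *Tnn* (3.67). At D10 the order was *Sparc* (13612 per kb), *Postn* (8926), *Fn1* (4262), *Tnc* (3743), *Thbs2* (771), *Cthrc1* (552), *Thbs1* (523), *Tnn* (452) and *Spp1* (115). *Tnc* stood in the fourth place at D10 and *Thbs1*, the fourth at D0, in the seventh. In *A. cahirinus* the level per kb of the longest contig at D0 ran from *Postn* (6714) over *Sparc* (3742), *Thbs1* (758), *Fn1* (512), *Thbs2* (76.1), *Tnn* (58.7), *Tnc* (48.8) and *Cthrc1* (16.1) to *Spp1* (11.2). At D10 *Postn* (9157) and *Fn1* (8480) led, before *Sparc* (5745), *Tnc* (3108), *Cthrc1* (1212), *Thbs2* (661), *Tnn* (556), *Thbs1* (433) and *Spp1* (232). The longest contig can be longer than the transcript (17455 bases for *Tnc*, against 7100 in *M. musculus*) or shorter (2283 bases for *Tnn*, against 5809). The *A. cahirinus* order is therefore approximate, and the place of *Tnn* above *Tnc* at D0 rests on these lengths. It also counts 1 component per gene and leaves out the second components of *Sparc* and *Thbs2*, whose D10 means of 12650 and 4806 stood beside 11248 and 4879 of the chosen ones, so the places of these genes among their neighbours depend on the choice of components. Neighbours in these orders could not be compared with a spread over animals.

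Averaged over the 4 days, the log2 change in *A. cahirinus* minus that in *M. musculus* was positive for 5 genes: *Spp1* (4.02 and 1.95, a difference of 2.08), *Fn1* (3.11 and 1.84, 1.27), *Tnc* (5.22 and 4.01, 1.21), *Cthrc1* (4.92 and 3.73, 1.19) and *Thbs2* (2.60 and 2.01, 0.59). It was negative for *Tnn* (2.21 and 6.23, -4.02), *Postn* (0.20 and 2.25, -2.06), *Sparc* (0.31 and 1.47, -1.16) and *Thbs1* (-0.35 and -0.05, -0.29). The difference was positive at all 4 days for *Fn1*, *Spp1* and *Thbs2*, and negative at all 4 for *Tnn*, *Postn* and *Sparc*. For *Tnc* and *Cthrc1* it was -0.11 and -1.52 at D5 and positive afterwards, and for *Thbs1* it was 1.0 at D5 and negative afterwards. Some of these averages depended on how they were made: *Thbs1* was at -0.67 and *Thbs2* at 0.21 relative to *Tbp*, and *Thbs1* was at -0.71 and *Cthrc1* at 2.03 as medians over the 4 days. *Tbp*, the control gene of the study's qPCR, was called in no comparison, with *A. cahirinus* means of 184 at D0 and 158 to 192 later and *M. musculus* means of 128 and 89.2 to 94.4.

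To see the 9 genes against a fibrillar collagen, their means were divided by that of *Col3a1*, the main chain of type III collagen, in the same group. Such a ratio does not depend on library size. *Col3a1* itself was 13469 at D0 and 15979 at D5 in *A. cahirinus*, not called, then 94357, 115329 and 89178, called higher. Its *M. musculus* means were 22213 at D0 and 100678 at D5, then 193610, 216184 and 209021, all called higher. The *A. cahirinus* ratio of *Fn1* to *Col3a1* was 0.386, 1.06, 0.912, 0.558 and 0.491 from D0 to D20. The *M. musculus* ratio was 0.360 at D0 and 0.179, 0.185, 0.166 and 0.140 at the later days. The *A. cahirinus* ratio was thus above D0 at each later day and the *M. musculus* ratio below it.

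The *A. cahirinus* ratio of *Tnc* to *Col3a1* was 0.0632, 0.858, 0.575, 0.354 and 0.375 over the same days, and the *M. musculus* ratio was 0.0515, 0.197, 0.137, 0.104 and 0.0462. It was back below its D0 value at D20 in *M. musculus* only. The *Cthrc1* ratio peaked at D10 in *A. cahirinus* (0.0166, from 0.00154 at D0) and at D5 in *M. musculus* (0.00519, from 0.00180). The *Postn* ratio was lower than at D0 at every later day in both species, 3.55 against 0.590 to 1.78 in *A. cahirinus* and 0.212 against 0.121 to 0.148 in *M. musculus*. The same held for *Sparc*, with 0.544 against 0.110 to 0.250 and 0.457 against 0.156 to 0.176. The *Tnn* ratio was 0.00995 at D0, 0.00611 at D5 and at most 0.0135 (D10) in *A. cahirinus*, 1.35-fold of D0, whereas in *M. musculus* it was 0.000959 at D0 and at most 0.0136 (D10), 14.2-fold of D0. The *Spp1* ratio was highest at D5, 37.6-fold of D0 in *A. cahirinus* and 2.86-fold in *M. musculus*. The *Thbs1* ratio of *A. cahirinus* was 0.589 at D0 and 1.16 at D5 and then 0.0481, 0.0336 and 0.0523, below D0. The *Thbs2* ratio was 0.0417 at D0, 0.111 at D5 and 0.0517 at D10, and lay below D0 at D15 (0.0403) and D20 (0.0374). In *M. musculus* the ratios of both genes were below D0 from D5 on. With *Col1a1*, a chain of type I collagen, in place of *Col3a1*, the *A. cahirinus* ratio of *Fn1* was 0.807 at D0, 3.91 at D5 and 1.2 at D20, and the *M. musculus* ratio 0.981, 0.383 and 0.243. The choice of collagen moved the highest *A. cahirinus* ratio relative to D0 by over 1.5 times for each of the 9 genes, for example to 66.5-fold for *Spp1*, 4.84-fold for *Fn1* and 2.24-fold for *Tnn*, and those of *M. musculus* *Tnn* and *Postn* to 9.37-fold and 0.463-fold. Over *Col1a1* the *A. cahirinus* ratio of *Tnn* at D5 and D15 (0.0227 at both, against 0.0208 at D0) and those of *Thbs2* at D15 and D20 (0.0931 and 0.0911, against 0.0872) were above D0 and not below it. These ratios were chosen after the values were seen, and no test was made.

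**Figure D4:**
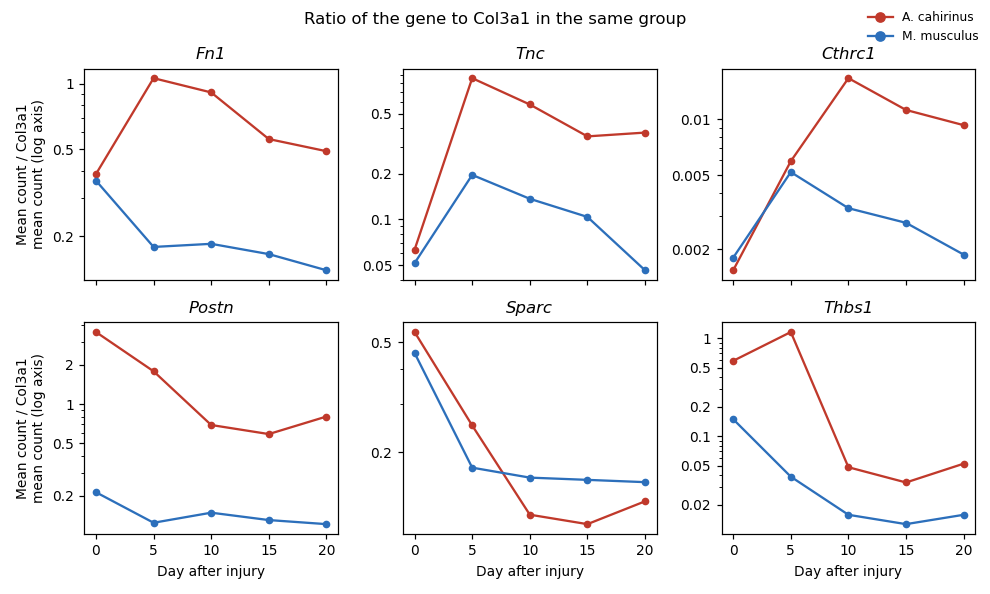
Mean count of 6 genes divided by the mean count of *Col3a1* in the same group (log axis) by day in *A. cahirinus* (red) and *M. musculus* (blue). By D5 the *Fn1* ratio goes from 0.386 to 1.06 in the first species and from 0.360 to 0.179 in the second.

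The fibroblast markers, which include these collagens, were summed as a check of the tissue. They stood at 29617 at D0, 31883 at D5 and 172487 at D10 in *A. cahirinus* (4 of 5 measured, 4 called higher at D10) and at 49970, 216109 and 438068 in *M. musculus* (5 of 5, 4 called at D10). *Pdgfra*, a receptor of dermal fibroblasts, was called higher in all 8 comparisons, with *A. cahirinus* means of 1434 (D0) and 2153 (D5) and *M. musculus* means of 840 and 1670. Endothelial markers summed to 2744 at D0 and 2171 at D5 in *A. cahirinus* (1 of 4 called lower, 3 not called). In *M. musculus* they summed to 1013 and 2185 (4 of 4 called higher). At D20 the endothelial sums were 1546 in *A. cahirinus* (3 called lower) and 1582 in *M. musculus* (3 called higher). Keratinocyte markers summed to 27232 at D0 and 43975 at D5 in *A. cahirinus* (3 of 4 measured, 2 called higher). Averaged over the 4 days, these 3 went different ways, *Krt14* with a log2 change of 0.71, *Dsp* with -0.12 and *Dsg1b* with -2.39. The *Dsg1b* component aligned with 98.53% identity over 543 bases, just under the identity limit of 99%, so its value is uncertain. The *M. musculus* keratinocyte sums were 77789 and 160915 (3 of 4 called higher). The muscle gene *Ryr1* was 2492 and 998, and 4495 and 848, at D0 and D5 of *A. cahirinus* and of *M. musculus*, called lower in both. The cartilage markers went both ways at D5, with 1 called higher and 2 lower in *A. cahirinus* and 1 higher and 1 lower in *M. musculus*, of 3 measured in each. Of these, *Acan* was 4462 and 2261, and 3677 and 1419, at D0 and D5 of the 2 species, called lower, and *Col2a1* was 597 and 1065, and 177 and 499, called higher. The part of these cell types in the values of the 9 genes was not tested.

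Of 14 receptors of these proteins, all were measured in *A. cahirinus* and 11 in *M. musculus*, where *Itga4*, *Cd36* and *Cd47* were not placed with enough certainty. In *A. cahirinus* 9, 10, 9 and 8 were called higher and 2, 3, 3 and 3 lower from D5 to D20. Of all paired genes, 31.2%, 21.4%, 18.5% and 13.0% were called higher and 11.3% to 15.2% lower. In *M. musculus* 7, 7, 7 and 8 of 11 were called higher and 3, 3, 2 and 2 lower. The shares of all paired genes were 23.7%, 22.0%, 18.8% and 17.5% higher and 15.9% to 18.1% lower. Receptors called higher thus lay above these shares, and those called lower lay nearer to them. The median change of the receptors lay between 0.55 and 0.86 (*A. cahirinus*) and between 0.52 and 0.89 (*M. musculus*). *Itga5*, the alpha chain of the classical fibronectin receptor, had the highest mean change in both species (2.59 and 2.26), and its *A. cahirinus* mean was 206 at D0 and 1665 at D10, beside 134 and 690 for *M. musculus*. Its partner *Itgb1* was 2334 and 6969, and 2180 and 4075, at the same days of the 2 species, called higher throughout. *Itgb3*, the beta chain of the osteopontin and fibronectin receptor alpha-v beta-3, was 77.0 and 506, and 82.3 and 327, and its partner *Itgav* was 1299 and 3285, and 1248 and 1814, both called at each day. The lowest were *Cd36*, a thrombospondin receptor also of fat cells, in *A. cahirinus* (mean change -1.89, 2575 at D0 and 846 at D5) and *Itgb6*, an epithelial chain, in *M. musculus* (-1.06, 214 at D0 and 76.5 at D20).

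**Figure D5:**
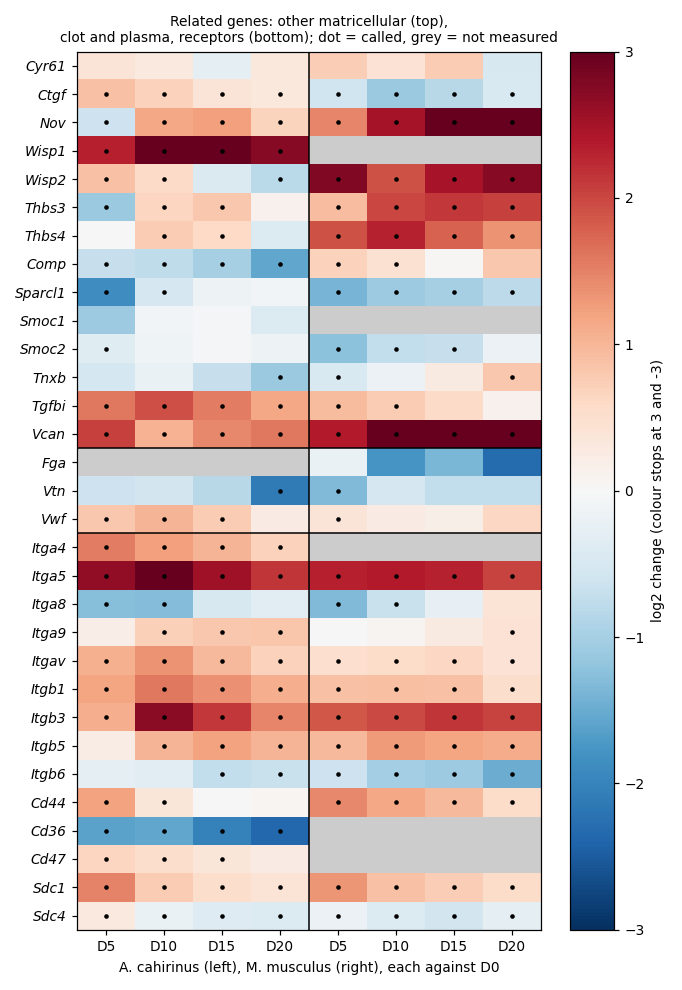
log2 change over D0 of the related genes (rows) at each day in *A. cahirinus* (left 4 columns) and *M. musculus* (right 4 columns), coloured from blue (lower) to red (higher) with the scale stopped at 3 and -3; dots mark calls and grey marks genes not measured. *Itga5* and *Vcan* are red with dots in all 8 columns, and *Ctgf* is red on the left and blue on the right.

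Of 14 other matricellular genes, 14 were measured in *A. cahirinus* and 12 in *M. musculus*. In *A. cahirinus* 5, 8, 7 and 5 were called higher and 5, 2, 1 and 3 lower from D5 to D20. Of all paired genes, 31.2%, 21.4%, 18.5% and 13.0% were called higher and 11.3%, 11.7%, 14.5% and 15.2% lower. At D5 the 5 called higher thus lay near the share of all genes. In *M. musculus* 7, 7, 5 and 6 were called higher and 4, 3, 3 and 2 lower. The shares of all paired genes were 23.7%, 22.0%, 18.8% and 17.5% higher and 17.4%, 18.1%, 16.4% and 15.9% lower. Median changes of these other matricellular genes were -0.18, 0.61, 0.18 and 0.02 for *A. cahirinus* and 0.83, 0.61, 0.67 and 0.81 for *M. musculus*. They were smaller than those of the 9 genes. *Wisp1*, a CCN family member of mesenchyme, changed most in *A. cahirinus* (mean change 3.07, from 93.9 at D0 to 1238 at D10), while the gene was not placed in *M. musculus*. *Vcan*, which encodes the hyaluronan-binding proteoglycan versican, changed most in *M. musculus* (3.09, from 522 at D0 to 6365 at D15) and was 831 at D0 and 3432 at D5 in *A. cahirinus*, all called higher. The lowest were *Comp*, a thrombospondin of cartilage and tendon, in *A. cahirinus* (-1.0, 727 at D0 and 248 at D20) and *Sparcl1*, a relative of *Sparc*, in *M. musculus* (-1.07, 1967 at D0 and 746 at D5).

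*Ctgf*, the connective tissue growth factor of the CCN family, was called in opposite directions at all 4 days. Its mean was 905 at D0 and 1681, 1457, 1185 and 1124 later in *A. cahirinus*, called higher, and 2060 at D0 and 1367, 955, 1148 and 1508 in *M. musculus*, called lower. Among genes of the clot and plasma, fibrinogen chains were measured only as *Fga* in *M. musculus*, with a mean of 3.36 at D0. *Vwf*, the von Willebrand factor of endothelium and platelets, had the highest mean change of this list in both species (0.71 and 0.36). Its *A. cahirinus* mean was 662 at D0 and 1353 at D10, called higher from D5 to D15, and its *M. musculus* mean was 360 at D0 and 468 at D5, called higher at D5 alone. *Vtn*, which encodes vitronectin, had the lowest (-1.03 and -0.83), with 46.7 at D0 and 10.8 at D20 in *A. cahirinus* and 31.6 and 12.5 at D0 and D5 in *M. musculus*, both called lower. In *A. cahirinus* 1 of 2 measured genes of this list was called higher at D5, D10 and D15 and 1 lower at D20, with medians of 0.10, 0.24, -0.04 and -0.93. In *M. musculus* 1 of 3 was called higher and 1 lower at D5 and none later, with medians of -0.19, -0.50, -0.75 and -0.75. Of all paired genes, 13.0% to 31.2% were called higher and 11.3% to 15.2% lower in *A. cahirinus*. In *M. musculus* these shares were 17.5% to 23.7% and 15.9% to 18.1%. So few measured genes allow no comparison with them.

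Likeness of pattern was measured as the Euclidean distance over the 8 log2 changes, in log2 units, to 1971 or 1972 candidate genes. Candidates were the genes whose *M. musculus* number was known and not inferred and whose mean reached 10 in both species, and of the 9 genes these hold *Fn1*, *Tnc*, *Tnn* and *Postn* alone. Measured genes outside the candidates can lie nearer. The closest matches were those of *Postn*, with *Fhod3* at 0.6 and *Nfatc4* at 0.92, and of *Sparc*, with *Igsf10* at 0.62 and *Fbxl7* at 0.71. *Thbs2* had *Cdh2* at 1.01 and *Fn1* at 1.31, *Thbs1* had *Ptpre* at 1.08 and *Map3k5* at 1.2, and *Fn1* had *Slc6a17* at 1.74 and *Cdh2* at 1.85. *Cthrc1* had *Tnc* at 2.04 and *Ptprn* at 3.25, and *Tnc* had *Ptprn* at 3.09 and *Hhipl1* at 4.22. *Thbs2* and *Cthrc1*, which were no candidates, thus lay nearer to *Fn1* and to *Tnc* than the candidates named for these. *Tnn* (*Adamts4* at 4.47 and *Fbn2* at 4.52) and *Spp1* (*Pik3ap1* at 4.23 and *Brinp1* at 4.40) had no candidate nearer than 4.23.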

How the data were processed

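RNA-seq of ear tissue was measured in 10 groups of *A. cahirinus* and *M. musculus*. The authors aligned 50-bp paired-end, strand-specific reads with Bowtie, estimated counts with RSEM and compared each later day with D0 by EBSeq; mm10 is the build named in the submitters' processing notes. The deposited tables hold only these comparisons: 2 fold ratios of D0 to the later day, and a posterior probability, used as a score. Identity is a percent in the deposited BLASTN table, beside alignment length and bit score, which have their own (other) units.

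Group means were recovered from the 2 ratios, each of which holds a constant. The smaller constant was set in advance, and the larger was read from each table. The recovery was checked on data simulated with the same formula. That check covers the arithmetic and cannot show whether the formula holds for the deposited values. The posterior probability is the authors' own call and was used only as that. Numbered *M. musculus* genes were named by placing them along GENCODE transcripts matched with minimap2 2.31. Of 1992 known pairs held out in turn, 1826 were placed right, and 1381 of the 1388 with a probability of at least 0.9, the limit used here. Several settings were compared on these held-out pairs. The *A. cahirinus* component of a gene was that with the top bit score below 99% identity whose own top hit is the gene. A mean of 10 over 3 libraries is 30 reads, a counting error of 18.3%. The 9 genes and all lists were chosen with earlier results of these data known. Named are the 9 genes, the 2 nearest genes of each, the highest and lowest gene of a related list by mean change, markers and *Tbp*; *Ctgf*, partner receptors and the ratios to collagen were added after their values were seen. Python 3.11.15, NumPy 2.4.6 and pandas 2.3.3 were used.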

Additional observations from a re-analysis of the deposited data

Results flagged for a closer look

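Of the 9 genes, *Postn* at D5 was called lower in *A. cahirinus* and higher in *M. musculus*, with an *A. cahirinus* minus *M. musculus* log2 change of -2.16. Among the related genes the same held for *Ctgf* at all 4 days in the other sense, with differences of 1.49, 1.80, 1.23 and 0.76 from D5 to D20, and for *Sdc4*, a syndecan, at D5 (0.48). *A. cahirinus* was lower and *M. musculus* higher for *Nov* (-2.09) and *Thbs3* (-2.03) at D5, *Comp* at D5 (-1.39) and D10 (-1.23), and *Wisp2* (-3.54) and *Tnxb* (-1.95) at D20. These differences were not tested.

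Some *A. cahirinus* components matched a transcript of *M. musculus* with at least 99% identity, were left out of the comparisons and held reads at D0. Their summed D0 mean was 19.2 for *Fn1*, 20.8 for *Tnc*, 18.2 for *Postn* and 172 for *Sparc*. At D5 it was 3.38, 1.1, 2.79 and 112, and at D10 16.7, 9.22, 18.1 and 187. Inside the chosen components, 2 of 86 *Fn1* contigs and 1 of 11 *Sparc* contigs aligned at this identity over at least 100 bases.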

How the results depend on the processing

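The tables hold 1 value per group, so no replicate could be left out. No paired analysis was possible because the tables hold no values per animal and carry no replicate numbers. The counts of the 9 genes called stayed within 1.5 times under a probability of 0.99, a least mean of 10, a least log2 change of 1, no limit on identity and the second component, which was added after seeing the data. With no limit on identity, *Sparc* of *A. cahirinus* at D15 went from 0.79 to -0.38 and lost its call, so that 8 genes instead of 9 were called. Its D20 change, not called, also turned, from 0.69 to -0.64. No other called log2 change turned its direction under the alternatives tried. In *A. cahirinus* the call of *Postn* at D5 was lost at a probability of 0.99 (5 genes instead of 6) and in the second component, which gained that of *Thbs1* at D5. A least log2 change of 1 removed 7 calls, those of *Postn* at D5, D15 and D20, *Sparc* at D15 and *Thbs1* at D10 and D20 in *A. cahirinus*, and *Sparc* at D5 in *M. musculus*.

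The differences between species kept their direction under all alternatives tried. Relative to *Tbp* they were 0.89 for *Fn1*, 0.83 for *Tnc*, -2.44 for *Postn*, -1.54 for *Sparc*, -0.67 for *Thbs1* and 0.21 for *Thbs2*, shifted by the *Tbp* change itself. As medians over the 4 days they were 1.33 for *Fn1*, 1.37 for *Tnc*, -2.11 for *Postn*, 2.03 for *Cthrc1*, -1.0 for *Sparc*, -0.71 for *Thbs1* and 0.71 for *Thbs2*. Summed components gave 0.46 for *Thbs2*. The counting error of *Cthrc1* and *Spp1* in both species and of *Tnn* in *M. musculus* is set by 51 to 120 reads per group at D0, and no value here has an error over animals.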
